A study of Mus musculus with 3 samples.

Results

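Interferon-stimulated genes were followed in skin resident macrophages through the resting phase (telogen) of the second hair cycle. The list holds 51 genes, which cover the interferon receptors, the transcription factors that act downstream of them, and the genes that these factors switch on. It was chosen by a change on these same arrays, as Ifi44l was among the largest decreases from early to late telogen, so the changes from early telogen below are a description and support nothing by themselves. Of the 51 genes, 49 had at least 1 probe (62 probes in all), out of 19752 genes that could be named on the array. Mx1 and Mx2 could not be matched to a probe through their RefSeq transcripts and were not analysed here.

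The cells were CD11b+Gr1-F4/80+ macrophages sorted by FACS from digested backskin of mice of CD1 background at early (Te, P42 in the sample labels), mid (Tm, P55) and late telogen (Tl, P69). The paper gives a slightly later day for Te. RNA of 3 littermates was pooled at each stage, amplified as a whole transcriptome before labeling with the dye Cy3, and measured on 1 array, and all 3 arrays lay on 1 slide. With 1 array per stage there was no replicate check and no test, and a difference between stages cannot be told apart from a difference between pools, sorts or amplifications.

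Interferons are secreted proteins that warn cells of infection. Type I interferons act through the receptor made of Ifnar1 and Ifnar2, which activates a complex with STAT2 and IRF9 that binds the interferon-stimulated response element (ISRE). Interferon gamma acts through Ifngr1 and Ifngr2 and acts mainly on genes that carry the gamma-activated site (GAS). Resting macrophages keep part of this program running, and many of its genes sense viral nucleic acid, block translation or attack the membranes in which pathogens live.

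A level is the log2 of the deposited intensity minus the 75th percentile of the array, so 0 is the brightness that separates the upper quartile of probes. Levels are compared between arrays for the same probe and never between probes. Repeated spots of 1 probe had a median SD of 0.126 (Te), 0.108 (Tm) and 0.119 (Tl) on the log2 scale over 217, 145 and 160 probes with 10 or more spots, which gives an SD of 0.174 for the difference of Tl from Te and of 0.166 for Tm from Te. These cover the spots of an array only. Of all probes, 71.4% (Te), 59.6% (Tm) and 68.7% (Tl) were well above background. All 49 measured members were above background on Te and Tl, and 46 on Tm.

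The names of the later arrays carry a doubt. In the table of log2 values that the authors also deposited, the Tm column matched the scanner file of Tl and the Tl column that of Tm, each with an SD of the difference of 0.0000 (log2), whereas columns and files of the same name differed with an SD of 1.29 for Tm and nearly the same for Tl. Each scanner file was kept with the sample that it was deposited under. Values are given for both later arrays, and both are compared with the same Te array, so the comparisons are not independent of each other.

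Promoter sequences are shown for the gene that chose the list, for 3 of the GTPase genes that were lower on both later arrays, and for the pair of genes that were at least 2-fold higher on both. They come from RefSeq (GRCm38.p6, a C57BL/6J reference and not the CD1 stock of these mice) and run 5′ to 3′ on the strand of the gene. Of the 51 members, 41 had an entry of 250 bases before and 50 bases after the annotated start. Capitals mark matches to the ISRE letters GAAANNGAAA or to the GAS letters TTCNNNGAA, searched on both strands. The 3 GTPase genes shown are those with a GAS match among the 6 GTPase members with an entry. Gbp2, Gbp3 and Irgm1, not shown, held ISRE matches only. The first 5 runs hold the 250 bases before the start, and that of Ddx58 holds the 30 bases that end at its match just past the start. The Ifi44l run (minus strand, chr3:151762892-151763141) holds neither motif.
Ifi44l: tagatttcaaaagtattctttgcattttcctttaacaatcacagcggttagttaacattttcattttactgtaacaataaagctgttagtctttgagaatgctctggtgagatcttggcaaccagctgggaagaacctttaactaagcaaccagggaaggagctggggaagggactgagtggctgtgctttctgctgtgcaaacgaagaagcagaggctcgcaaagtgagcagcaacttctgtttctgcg
The Gbp5 run (plus strand, chr3:142496684-142496933) holds 1 ISRE match between 2 GAS matches.
Gbp5: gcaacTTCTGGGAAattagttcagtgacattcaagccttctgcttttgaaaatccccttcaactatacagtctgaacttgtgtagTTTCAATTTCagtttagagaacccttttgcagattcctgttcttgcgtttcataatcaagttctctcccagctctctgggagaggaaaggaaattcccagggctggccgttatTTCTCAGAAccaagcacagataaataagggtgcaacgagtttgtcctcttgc
The Gbp7 run (plus strand, chr3:142530086-142530335) holds 2 GAS matches upstream of 1 ISRE match.
Gbp7: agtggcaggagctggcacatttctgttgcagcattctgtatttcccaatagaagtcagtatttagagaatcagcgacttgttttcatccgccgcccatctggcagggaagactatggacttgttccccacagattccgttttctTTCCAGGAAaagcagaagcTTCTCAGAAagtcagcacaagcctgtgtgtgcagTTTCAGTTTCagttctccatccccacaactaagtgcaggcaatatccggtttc
The Igtp run (plus strand, chr11:58199306-58199555) holds a GAS match just upstream of an ISRE match.
Igtp: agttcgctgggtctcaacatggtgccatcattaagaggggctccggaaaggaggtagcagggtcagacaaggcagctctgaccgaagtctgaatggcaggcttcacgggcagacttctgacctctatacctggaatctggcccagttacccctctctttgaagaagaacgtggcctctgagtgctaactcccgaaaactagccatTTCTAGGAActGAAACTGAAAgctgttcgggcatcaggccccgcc
The Oas3 run (minus strand, chr5:120777660-120777909) holds 1 ISRE match.
Oas3: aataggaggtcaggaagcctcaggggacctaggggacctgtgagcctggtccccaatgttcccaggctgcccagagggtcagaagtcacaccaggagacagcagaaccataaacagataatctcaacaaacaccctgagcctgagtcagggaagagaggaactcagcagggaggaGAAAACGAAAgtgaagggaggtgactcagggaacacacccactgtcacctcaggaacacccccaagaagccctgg
The Ddx58 run (minus strand, chr4:40239814-40239843) ends with its ISRE match.
Ddx58: tccccagcgccctgaggcagTTTCGATTTC

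Interferon-stimulated genes did not move as a block. From Te to Tl, 6 of 49 members were at least 2-fold lower, beside 21.1% of 16185 genes, and 10 were at least 2-fold higher, beside 22.3% of all genes. Their median change was 0.24, beside 0.15 for all genes, and 27 members were above 0 and 22 below, beside 45.2% of all genes below. From Te to Tm, 14 of 48 members with a value were at least 2-fold lower, beside 16.9% of 15843 genes, and 6 were at least 2-fold higher, beside 29.2%. Their median change was -0.22, beside 0.22 for all genes, and 28 were below 0, beside 44.2%. Of these 14, Ifit1 and Gbp5 were not well above background on Tm and their folds are lower bounds, and Ifit2 had no value because its dim signal on Tm was no lower than its level on Te. The list as a whole therefore lay close to all genes on Tl and below them on Tm.

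**Figure D1:**
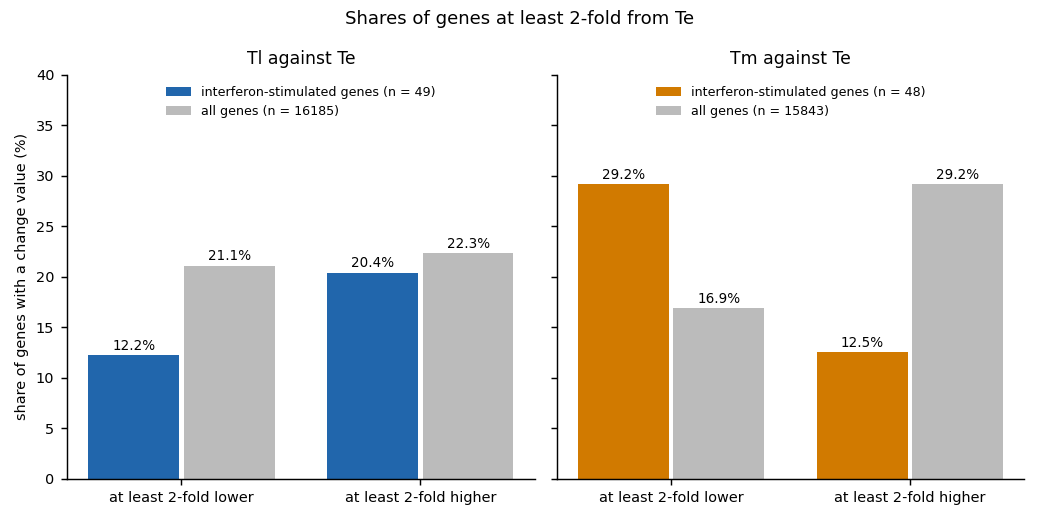
Bars give the share (%) of genes with a change value that were at least 2-fold lower or higher than on the Te array, for the interferon-stimulated genes (colored, 49 on Tl and 48 on Tm) and for all genes (gray). There are no error bars because each stage has 1 array. On Tm the lower share was 29.2% for the members and 16.9% for all genes, and the higher share was 12.5% and 29.2%.

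These counts moved with the scaling, since scaling on the median of each array moved the median change of all genes from 0.15 to 0.65 on Tl and from 0.22 to 0.86 on Tm. Under the median, 2 members were at least 2-fold lower and 21 higher on Tl, beside 10.6% and 38.7% of all genes, and 9 lower and 14 higher on Tm, beside 7.85% and 46.1%. Against the 75th percentile, the median adds 0.52 to every change on Tl and 0.56 on Tm, no normalization adds 1.16 and 0.26, and the percentile over detected probes adds -0.21 and -0.37, so the sign of a change smaller than this depends on the scaling. Families are therefore also described by their median minus that of all genes, with the range of this value over the other scalings, background correction, filters and probe rules.

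Both later arrays were at least 2-fold lower than Te for 6 of 48 members, beside 11.3% of 15606 genes. These were Ifi44l, the receptor chain Ifnar2, and the GTPases Gbp5, Gbp7, Irgm1 and Iigp1. Both were at least 2-fold higher for 2 members, Ddx58 and Oas3, beside 16.6% of all genes. Ddx58 and Oas3 were at least 2-fold higher on both under every scaling tried, and under the median 11 members were, beside 32.9% of all genes. The 6 lower genes were reduced to Ifi44l and Gbp5 by scaling on the median (4.48% of all genes), to Ifi44l without normalization (3.03%) and to 4 by normexp background correction. They grew to 9, with Zbp1, Gbp2 and Igtp added, with the percentile over detected probes (17.5%) and with quantile normalization (8.51%). In all, 19 members were below 0 on both arrays, 17 above 0 on both, and 12 lay on opposite sides of 0, beside 36.9%, 46.1% and 17% of all genes. The plot of levels by array shows the genes in order of their role.

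**Figure D2:**
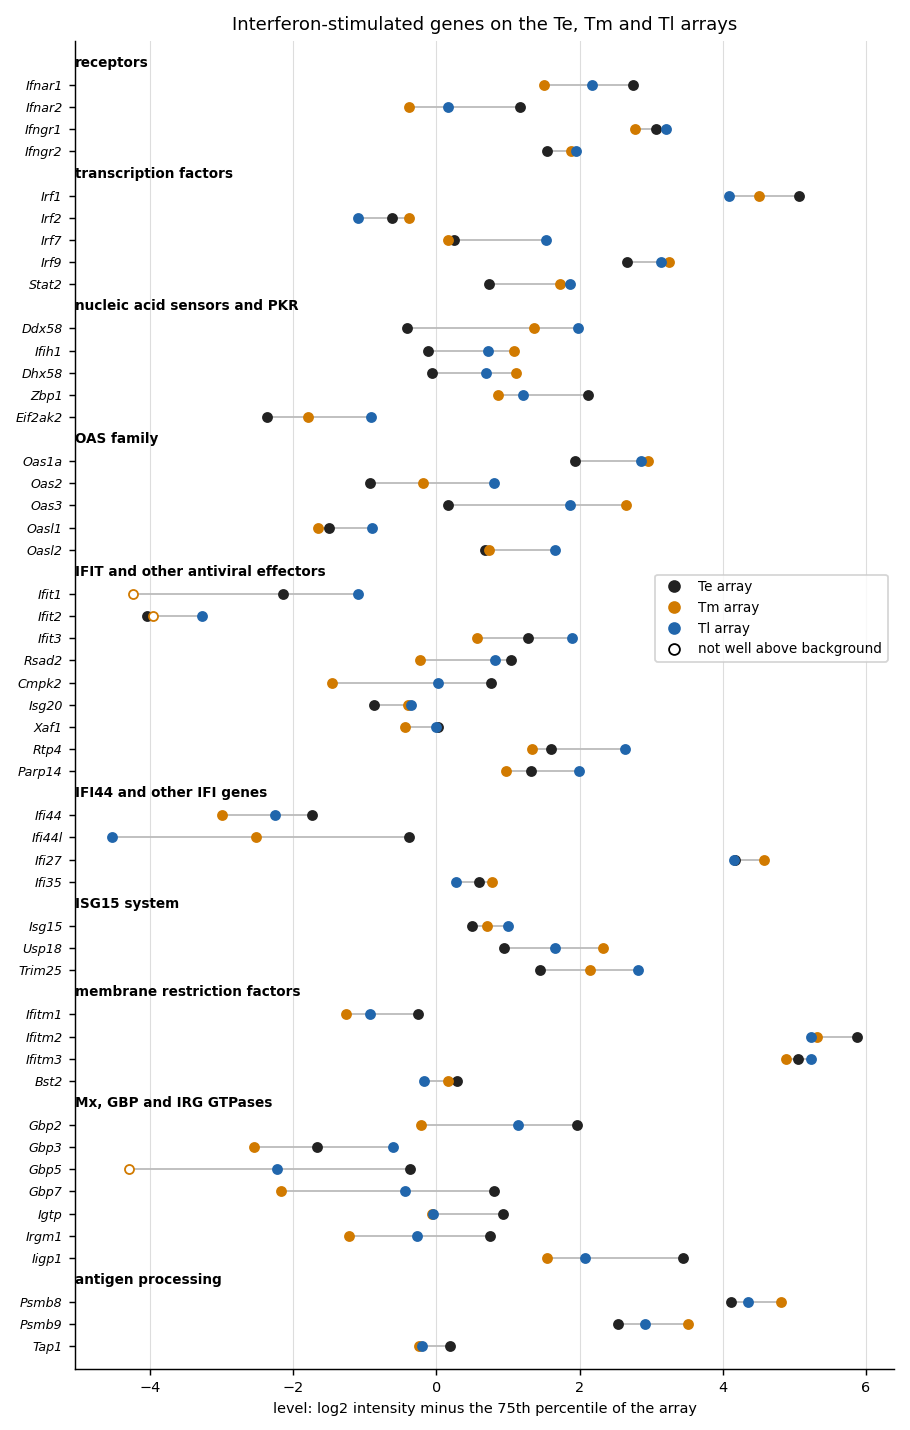
Each row is a member gene and each point its level on 1 array (log2 intensity minus the 75th percentile of the array), for Te (black), Tm (orange) and Tl (blue), with open points where the probe was not well above background. Ifi44l went from -0.38 on Te to -2.51 on Tm and -4.52 on Tl, and most GBP and IRG genes have Te as their highest point. Points are compared within a row only.

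Ifi44l, a relative of Ifi44 induced by type I interferon, had a level of -0.38 on Te, -2.51 on Tm and -4.52 on Tl. Te was the highest array and Tl the lowest, close to the lowest level called above background on that array (-5.10). Tl was 17.7-fold and Tm 4.39-fold below Te, both measured above background by its single probe. At least 10-fold decreases were seen for 0.507% of all genes on Tl and 0.316% on Tm, and at least 10-fold increases for 0.686% and 1.14%. Ifi44l was the only member past 10-fold lower on Tl, Gbp5 the only one on Tm, and no member was past 10-fold higher on either array. Only 1 of the genes measured on both arrays had a larger decrease on Tl, but 230 had one on Tm. The related Ifi44 was at -1.73 on Te, -2.99 on Tm and -2.26 on Tl, thus lowest on Tm with a change of -1.26 and nearer to Te on Tl (-0.53).

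The other genes of this group stayed within 2-fold of Te on both arrays. Ifi27, which encodes a mitochondrial protein of interferon-treated cells, was at 4.17 (Te), 4.58 (Tm) and 4.16 (Tl). Ifi35, a partner of the interferon-induced protein Nmi, changed by -0.33 on Tl and 0.18 on Tm. No other gene of the group came near the change of Ifi44l on Tl.

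By their brightest probes, chains of the type I receptor were lower on both later arrays than on Te, and chains of the interferon gamma receptor were close to Te. Ifnar2 was at 1.17 on Te, -0.39 on Tm and 0.16 on Tl, a change of -1.56 and -1.02, in that order. Ifnar1 was at 2.75, 1.496 and 2.18 on Te, Tm and Tl by its brightest probe, a change of -1.25 on Tm and -0.57 on Tl. Its other probes disagreed, at -1.07 and -1.23 for one and -0.19 and 0.40 for the other, so that the direction of Ifnar1 on Tl depends on the probe. Both chains lay above Te on Tl when arrays were not normalized, where 17.3% of all genes lay below Te. Ifngr1, the chain that binds interferon gamma, was at 3.07, 2.77 and 3.21, and its partner chain Ifngr2 at 1.55, 1.88 and 1.95. Relative to the median gene, the median of the 4 receptor genes was -0.36 on Tl (-0.68 to -0.14 over the alternatives) and -0.998 on Tm (-1.52 to -0.87).

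Transcription factors were split. Irf7, which amplifies the type I response, was at 0.24 on Te, 0.16 on Tm and 1.53 on Tl, so that only Tl stood apart, by 1.29. Stat2 was at 0.74, 1.72 and 1.87, a change of 0.98 on Tm and 1.13 on Tl, and Irf9, its partner in the ISRE-binding complex, changed by 0.58 and 0.48. Irf1, the factor most closely tied to interferon gamma, went the other way, from 5.06 on Te to 4.51 on Tm and 4.09 on Tl, and its second probe also lay below Te on both arrays. Irf2, which antagonizes Irf1, changed by 0.23 on Tm and -0.49 on Tl. Irf7 and Stat2 were the 2 of 5 at least 2-fold higher on Tl, beside 22.3% of all genes. None of the 5 reached 2-fold on Tm, beside 16.9% of all genes lower and 29.2% higher.

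Cytosolic RNA sensors were higher on both later arrays. Ddx58, which encodes RIG-I and detects viral RNA ends, was at -0.41 on Te, 1.36 on Tm and 1.97 on Tl, a 3.41-fold and a 5.20-fold difference. Te was its lowest array, and a second, dimmer probe, not above background on Te, also gave an increase of at least 0.98 (Tm) and 1.37 (Tl). Dhx58, the regulatory relative LGP2, was at -0.07, 1.11 and 0.70. Eif2ak2, the kinase PKR that stops translation when it binds double-stranded RNA, was at -2.37, -1.79 and -0.92, highest on Tl with a change of 1.45.

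The pair of sensors left had probes that disagreed. Ifih1, which encodes MDA5 and detects long double-stranded RNA, changed by 1.21 on Tm and 0.85 on Tl by its brightest probe (-0.12 on Te, 1.09 on Tm, 0.73 on Tl), but a dimmer probe was not well above background on either, which bounds its change at -1.51 and -2.37. Zbp1, a sensor of Z-form nucleic acid that can trigger necroptosis, was at 2.11, 0.86 and 1.21, a change of -1.26 on Tm and -0.90 on Tl, and a probe not above background on Te gave an increase of at least 1.19 and 0.65. By the brightest probe, 4 of the 5 genes were above 0 on both arrays under every scaling except no normalization on Tl, where all 5 were. Of all genes, 46.1% were above 0 on both, and 37.3% to 62.9% under the other scalings. Without normalization, 17.3% of all genes were below 0 on Tl. Relative to the median gene, their median was 0.70 on Tl (0.55 to 0.92) and 0.96 on Tm (0.76 to 0.97, but 0.34 with the median over the probes of a gene).

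The OAS enzymes make the short adenylate chains that activate RNase L. All 5 members were higher on Tl than on Te, by 0.60 to 1.73, and stayed above 0 under each of the scalings tried, and 4 of 5 were higher on Tm (3 to 5 over the scalings). Among all genes, 45.2% were below 0 on Tl and 44.2% on Tm. Over the other scalings these shares ran from 17.3% to 51.5% on Tl and from 28.9% to 54.2% on Tm. Oas3 was at 0.17 on Te, 2.65 on Tm and 1.87 on Tl, 5.57-fold and 3.24-fold above Te, with the Tm array highest. Oas2 was at -0.92, -0.19 and 0.81, highest on Tl with a change of 1.73. Oas1a was at 1.94, 2.95 and 2.85, a change of 1.01 on Tm and 0.91 on Tl, and its second probe gave 0.58 and 0.59. The OAS-like genes differed from Te on Tl only: Oasl1, which represses translation of Irf7, was at -1.496, -1.65 and -0.89, and Oasl2 at 0.68, 0.74 and 1.66. Relative to the median gene, the median of the family was 0.83 on Tl (0.58 to 1.06) and 0.51 on Tm (0.22, under quantile normalization, to 0.53). The OAS genes measured outside the list, singled out after their values were seen, gave mixed directions. Oas1c changed by -0.21 on Tl and 0.62 on Tm, and Oas1g by 0.12 on Tl and at least 3.91-fold lower on Tm, where it was not well above background, with a second probe at -0.58 and -0.64. Oas1a shares long stretches with its neighbours in the gene cluster, so its signal may include theirs.

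**Figure D3:**
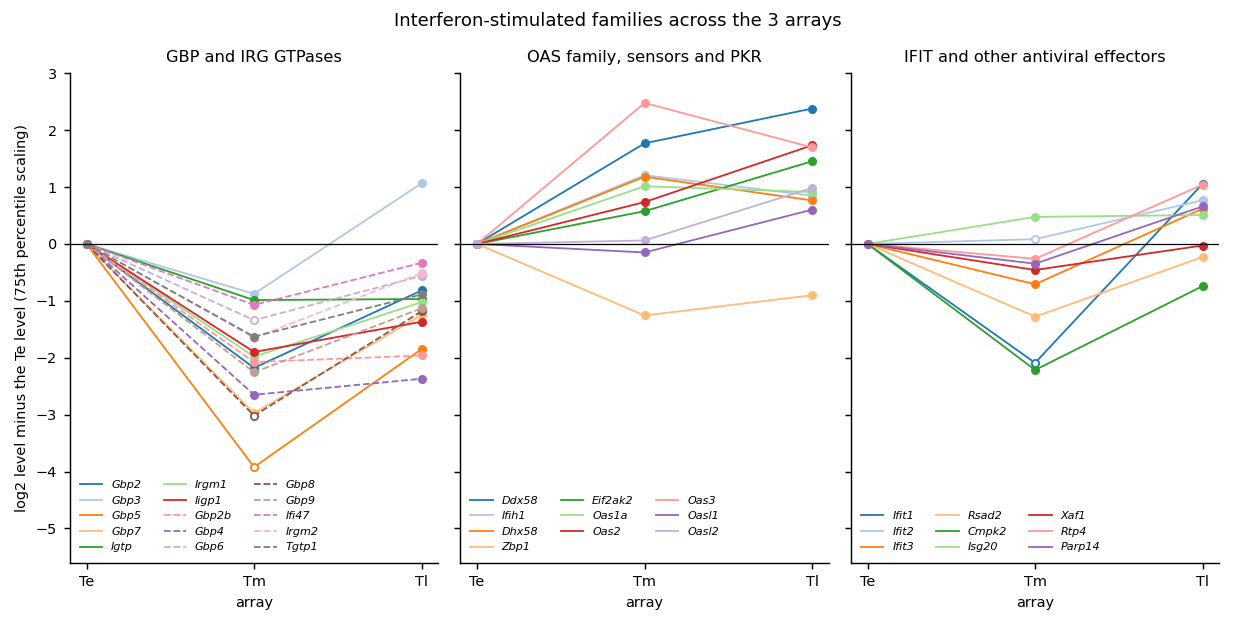
Lines join the log2 level of a gene on the Te, Tm and Tl arrays after subtraction of its Te level; solid lines are members, dashed lines are GBP and IRG genes outside the list, and open points were not well above background. All 15 GBP and IRG genes lay below Te on Tm and 14 of 15 on Tl, whereas 9 of 10 OAS genes, sensors and PKR lay above Te on Tl. Among all genes, 44.2% lay below Te on Tm and 45.2% on Tl. Te is at 0 by construction, and the order of the later arrays is that of the scanner files.

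Most IFIT genes and other antiviral effectors had their lowest level on Tm. Of the 8 with a change value there, 7 were below Te, beside 44.2% of all genes, and the exception was Isg20. Scaling on the median of each array left 4 of 8 below Te, beside 28.9% of all genes. The median of the group minus that of all genes was 0.47 on Tl (0.18 to 0.70 over the alternatives) and -0.81 on Tm (-1.10 to -0.67). Of the 9 genes, 8 were lower on Tm than on Tl by at least 0.43 and Isg20 by 0.03. From Tm to Tl, 6 of the 9 were at least 2-fold higher, beside 7.85% of 14849 genes, and 11 of all 49 members were, with 1 at least 2-fold lower (Ifi44l), beside 11.3% of all genes. The median change from Tm to Tl was 0.43 for the members and -0.15 for all genes. This direction is fixed by which file is Tm and would turn with the exchange of the later arrays.

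Ifit1, which binds viral RNA caps, was at -2.15 on Te and -1.09 on Tl, with a Tm signal that was not well above background, at least 3.73-fold below Te there and 2.08-fold above Te on Tl. Ifit3, which stabilizes Ifit1, was at 1.27 (Te), 0.57 (Tm) and 1.89 (Tl). Ifit2, another RNA-binding member of the cluster, was dim throughout (-4.04 on Te and -3.27 on Tl) and not well above background on Tm, where its signal was no lower than on Te. Thus all 3 neighbouring IFIT genes lay above Te on Tl, and Ifit1 and Ifit3 below Te on Tm.

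Cmpk2, a mitochondrial nucleotide kinase, was at 0.76, -1.45 and 0.02 on Te, Tm and Tl, 4.64-fold lower on Tm and -0.74 on Tl. Its second probe gave -1.83 on Tm and 0.09 on Tl, so the Tm decrease was seen by both probes and the Tl decrease by one. Rsad2, its neighbour that encodes viperin, was at 1.05, -0.23 and 0.82, a change of -1.28 on Tm and -0.23 on Tl. Rtp4, a chaperone that tunes the type I response, was at 1.597, 1.33 and 2.64, higher on Tl only by 1.04. Parp14 changed by 0.66 on Tl and -0.35 on Tm, and Xaf1, a promoter of apoptosis, by -0.03 and -0.46. Isg20, an RNA exonuclease, changed by 0.51 and 0.48, with a second probe at -0.47 on Tl and 0.11 on Tm.

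Genes of the ISG15 system, a ubiquitin-like modifier with its enzymes, were all above 0 by their brightest probe, except 1 of 3 on Tm with the percentile taken over detected probes. Above 0 on both arrays were 46.1% of all genes, and 37.3% to 62.9% under the other scalings. Isg15 itself was at 0.50, 0.70 and 1.00 on Te, Tm and Tl, but a second probe gave -0.50 on Tm and -0.06 on Tl, so no direction is given. Usp18, the protease that removes Isg15 and dampens receptor signaling, was at 0.94, 2.33 and 1.66, highest on Tm with a change of 1.39 from Te. Trim25, a ligase for both Isg15 and RIG-I, was at 1.44, 2.14 and 2.82, highest on Tl with a change of 1.37 from Te.

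Membrane proteins that hold viruses at entry or exit stayed within 2-fold of Te, with Ifitm1 on Tm just past it. Ifitm1 was at -0.26, -1.27 and -0.92, a change of -1.01 on Tm and -0.66 on Tl, and was the only 1 of the 4 to reach 2-fold. Ifitm2 changed by -0.57 on Tm and -0.64 on Tl, Ifitm3 by -0.17 and 0.17, and Bst2, the tether of budding virions, by -0.13 and -0.46. Relative to the median gene the group lay at -0.70 on Tl (-0.75 to -0.40) and -0.59 on Tm (-1.11, under quantile normalization, to -0.45). The 3 IFITM genes are close copies, so their signals may not be fully separate.

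The GTPases of the GBP and IRG families, which interferon gamma strongly induces in macrophages and which attack the vacuoles of intracellular pathogens, were lower on the later arrays. Of the 7 measured members, 7 were below 0 on Tm, beside 44.2% of all genes, and 6 on Tl, beside 45.2%. Those below 0 on Tl fell to 3 of 7 without normalization, and those on Tm remained 7 under every scaling. Of all genes, 17.3% were below 0 on Tl without normalization, and 28.9% to 54.2% on Tm over the other scalings. At least 2-fold lower were 5 on Tm, beside 16.9%, and 4 on Tl, beside 21.1%. Relative to the median gene, the median of the family was -1.17 on Tl (-1.44 to -0.95) and -2.20 on Tm (-2.59 to -1.97).

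Gbp5, which promotes inflammasome assembly, was at -0.37 on Te and -2.22 on Tl, with a Tm signal that was not well above background, 3.60-fold lower on Tl and at least 12.8-fold lower on Tm. Gbp7, which supports the oxidative burst on vacuoles, was at 0.81, -2.17 and -0.44 on Te, Tm and Tl, 7.87-fold lower on Tm and 2.38-fold on Tl. Gbp2, a vacuole-coating GTPase, was at 1.96, -0.22 and 1.14, 4.53-fold lower on Tm and 1.76-fold on Tl. In each of these, Tm was lowest and Te highest.

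Irgm1, a regulator of the other IRG proteins and of autophagy, was at 0.76, -1.23 and -0.27, 3.95-fold lower on Tm and 2.03-fold on Tl, with a second probe at -1.87 and -1.26. Iigp1, an effector that disrupts parasite vacuoles, was at 3.45, 1.55 and 2.08, 3.73-fold and 2.58-fold lower, and its second probe gave -2.02 and -1.10. Igtp, which encodes Irgm3, was at 0.92, -0.06 and -0.04, a change of -0.99 and -0.97, just under 2-fold on each array. Gbp3 was the exception, at -1.67, -2.55 and -0.61, lower on Tm by 0.88 but 2.09-fold higher on Tl.

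**Figure D4:**
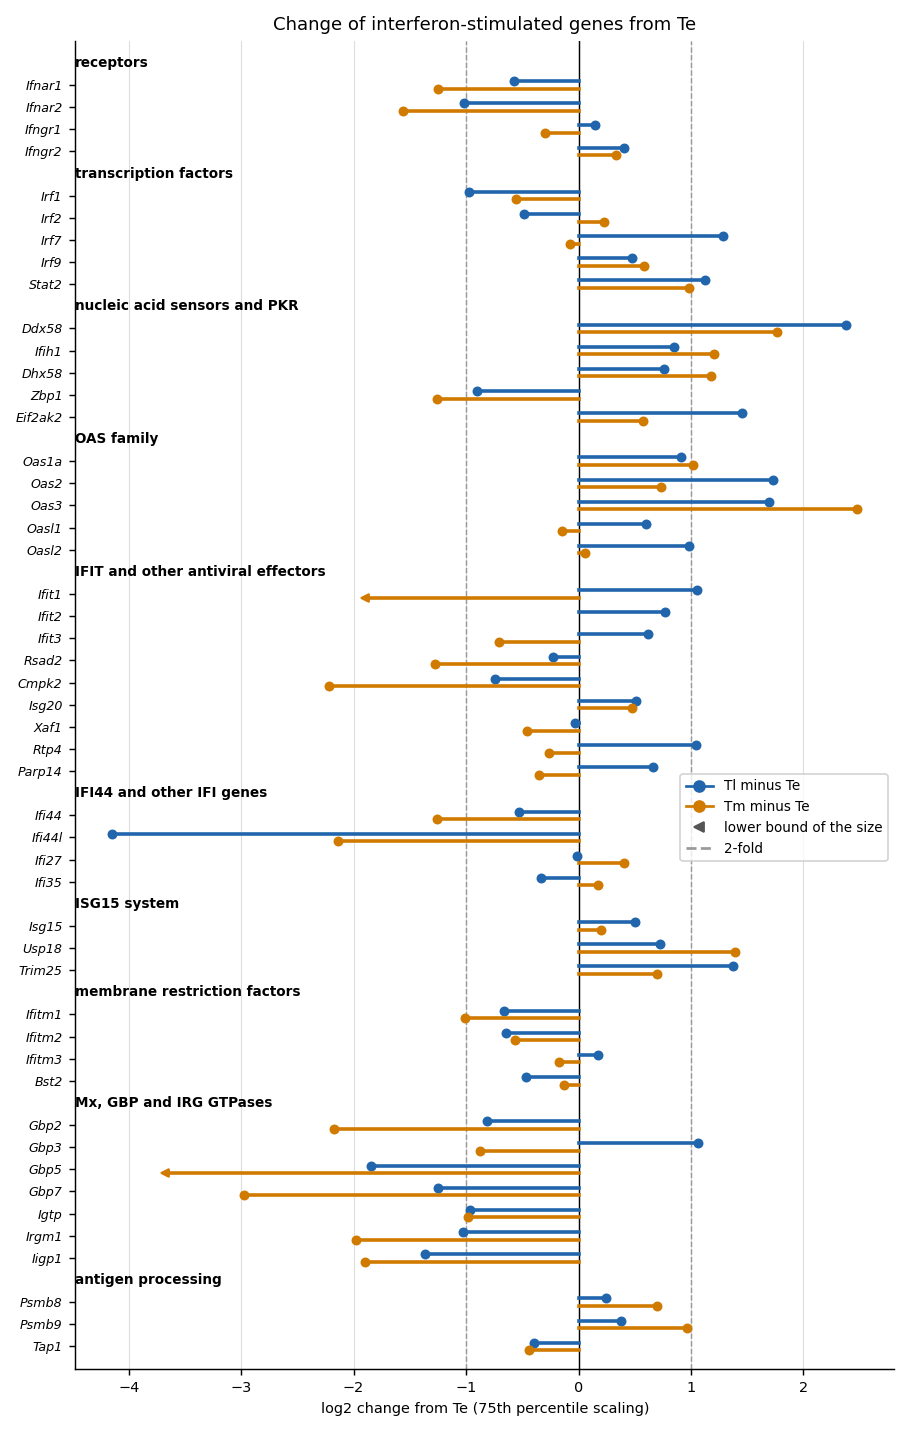
Each row is a member gene, with its log2 change from Te on the Tl array (blue) and on the Tm array (orange); arrowheads are lower bounds of the size of the change and dashed lines mark 2-fold. Ifi44l (-4.14) is the largest change on Tl and Gbp5 (at least 3.67 lower) on Tm. The GBP and IRG genes lie left of 0 except Gbp3 on Tl, and the OAS genes lie right of 0 except Oasl1 on Tm.

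GBP and IRG genes outside the list also lay below Te. They come from gene lists chosen with earlier results of these data known and share the Te array, so they add no independent support. All 8 measured (Gbp2b, Gbp4, Gbp6, Gbp8, Gbp9, Ifi47, Irgm2 and Tgtp1) were below 0 on both later arrays, with medians of -1.01 on Tl and -1.86 on Tm. The share of all genes below 0 on both was 36.9%. At least 2-fold lower were 4 on Tl, beside 21.1% of all genes, and 7 on Tm, beside 16.9%. Below 0 on Tl were 7 under quantile normalization, 6 under the median and 3 without normalization, and on Tm 7 under quantile normalization and 8 otherwise. The shares of all genes on Tl were 40.2%, 31.1% and 17.3%, in that order. On Tm they were 40.5% under quantile normalization and 28.9% to 54.2% otherwise. Gbp2b was at 1.95, -0.13 and -0.01 on Te, Tm and Tl, and Gbp4 at 0.59, -2.06 and -1.78. Gbp9 was at 0.04, -2.22 and -1.09, and Gbp8 at -1.53 on Te and -2.72 on Tl and not well above background on Tm. By the order of genes in RefSeq, Gbp5, Gbp7, Gbp3, Gbp2b and Gbp2 are neighbours on one chromosome and Gbp8, Gbp9, Gbp4 and Gbp6 on another, with medians of -1.25 and -1.16 on Tl and of -2.18 and -2.38 on Tm. GBP genes are similar in sequence, and their signals may not be fully separate.

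Antigen processing genes, which make and load peptides for MHC class I, stayed within 2-fold of Te. The immunoproteasome subunits Psmb8 and Psmb9 were at 4.11 and 2.54 on Te, 4.81 and 3.51 on Tm, and 4.36 and 2.91 on Tl. Tap1, a chain of the peptide transporter, was at 0.19, -0.24 and -0.20.

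Interferon genes themselves were mostly dim. Of 21 ligand genes 16 had a probe, and 14, 6 and 10 of these were above background on Te, Tm and Tl. At least 2-fold lower on both later arrays were Ifna11, Ifna14 and Ifnk, which is 3 of the 13 with both values, beside 11.3% of all genes, and none was at least 2-fold higher on either. Ifna11 was well above background on Te only, which bounds its change at -4.43 on Tl and -3.37 on Tm. Ifnk, the interferon of keratinocytes, was at -1.28 on Te and -4.59 on Tl and not well above background on Tm, and Ifna14 was at -1.93, -3.56 and -3.39. The Ifna genes are near-identical copies, so the signal of a probe may come from several of them. Ifng, named here outside the rule for pathway genes, was near background (-4.35 on Te and -3.85 on Tl) and not well above it on Tm.

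Signaling genes around the list were mostly within 2-fold. Of 10 kinases, STATs and other IRFs, Irf8, the lineage factor of macrophages, was the only one at least 2-fold higher on both arrays, at 2.46 on Te, 3.76 on Tm and 3.57 on Tl, and none was at least 2-fold lower on either, beside 16.6% of all genes higher and 11.3% lower on both. Of 7 negative regulators the phosphatases Ptpn2, Ptpn6 and Ptpn11 were at least 2-fold higher on both arrays, with changes of 2.09, 1.33 and 1.54 on Tl and of 1.78, 1.95 and 1.49 on Tm. For Ptpn2 this rests on its brightest probe, since the others gave 0.65 and 0.13 on Tl, and 0.29 and at least 0.66 lower on Tm.

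Of 13 measured genes that sense nucleic acid upstream of interferon, Aim2 and Mavs were at least 2-fold higher on both arrays. The share of all genes was 16.6%. Aim2, an inflammasome sensor of DNA, was at -3.08 on Te, -0.87 on Tm and -0.37 on Tl. Mavs, the adaptor through which RIG-I and MDA5 signal, was at 0.50, 2.09 and 1.72. Of 45 other interferon-induced genes measured, 6 were at least 2-fold lower on both arrays (Gbp2b, Gbp4, Gbp8, Gbp9, Cxcl9 and Slfn8) and 1 higher (Tap2), beside 11.3% and 16.6% of all genes. Cxcl9, a chemokine of interferon gamma responses, was at 0.61, -1.06 and -1.33.

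Promoter letters did not sort the members by direction. The ISRE letters were found for 20 of 41 members with a promoter entry (48.8%), beside 3.99% of the 27025 genes with one. The GAS letters were found for 15 (36.6%), beside 9.55%. A gene with several entries was counted where any of them held a match. Among the other interferon-induced genes, 15 of 37 (40.5%) held the ISRE letters and 4 (10.8%) the GAS letters, the latter close to all genes. Of members with an entry, ISRE letters were found for 8 of 17 below 0 on both arrays and for 7 of 14 above 0 on both. GAS letters were found for 7 of 17 and 4 of 14. All 6 GTPase members with an entry held the ISRE letters, as did the 3 sensor and PKR genes with one and 2 of 4 OAS genes. The GAS letters were in 3 of these 6, 1 of these 3 and 1 of these 4. In several promoters the ISRE matches overlap as repeats of the GAAA unit. A match says only that the letters are there.

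**Figure D5:**
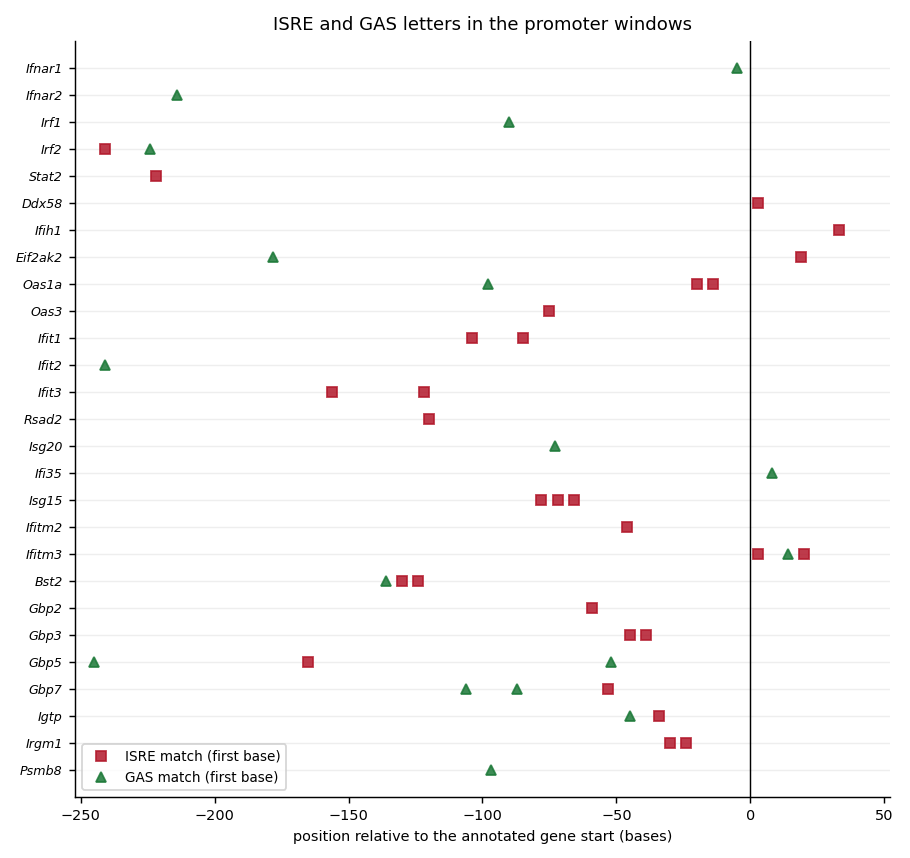
Squares (ISRE letters) and triangles (GAS letters) mark the first base of each match relative to the annotated start (0), for the 27 member genes with at least 1 match in the 300 bases. ISRE matches of Gbp2, Gbp3, Gbp7, Igtp and Irgm1 lie within 59 bases before the start. The 14 members with an entry and no match, Ifi44l among them, are not drawn.

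Signal of other cell types was present on all arrays and moved between them. All 11 macrophage markers with a probe were detected on each array, with a median change of -0.42 on Tl and -0.44 on Tm, and their summed linear signal relative to the 75th percentile was 904 (Te), 778 (Tm) and 531 (Tl). All 14 keratinocyte markers were also detected on each array, with a median change of 3.15 on Tl and 3.33 on Tm. Their summed signal was 278, 408 and 275, but most of it came from Trp63, and the other 13 summed to 16.9, 145 and 112. Langerhans and dendritic cell markers had sums of 22.8, 147 and 90.6, with Cd207, which marks Langerhans cells, at 3.78, 6.76 and 5.90. This list was split, with a median change of -0.91 on Tl and 0.22 on Tm. Cd207, Epcam and Itgax were higher on both later arrays, and Flt3, Xcr1 and Batf3 were lower on both. Monocyte markers had sums of 16.3, 28.5 and 35.4. The sums of the keratinocyte list without Trp63, the Langerhans and dendritic cell list and the monocyte list were lowest on Te.

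Endothelial and fibroblast markers had their highest sums on Te and their lowest on Tm, the order of most GBP and IRG genes. All 7 endothelial markers lay below Te on Tm, with a median change of -1.02, and 4 on Tl, with a median of -0.19, and their sums were 23.1, 11.05 and 19.9. Fibroblast markers had sums of 93.4, 48.4 and 51.0, but single genes went both ways. On Tl 4 of 8 were above 0, with a median change of -0.21, and on Tm 2 of 7, with a median of -0.85. Fbn1 and Thy1 were higher on both later arrays. NK cell markers, from cells that secrete interferon gamma, were above background for 6, 3 and 4 of 7 genes on Te, Tm and Tl, with sums of 10.1, 5.76 and 7.06, or 2.50, 0.53 and 3.15 without Prf1, which carried most of the sum. Without Klra8 as well, the NK cell sums were 0.40, 0.35 and 0.27. T cell markers had sums of 11.3, 14.6 and 10.5, or 2.00, 6.35 and 3.82 without Cd4 and Cd28. On each later array 5 of the 8 were above 0 and 3 below, with Cd3e higher by 3.08 on Tl and 4.20 on Tm. Plasmacytoid dendritic cell markers, from the main producers of type I interferon, had sums of 150, 131 and 74.5, nearly all from Siglech and Cd209d. The other 5, the member Bst2 among them, summed to 5.28, 11.4 and 8.22. The rise of this sum came mostly from Ly6d, higher by 2.94 on Tl and 3.59 on Tm. Pacsin1 was also higher on both later arrays, Bst2 and Tcf4 were lower on both, and Ccr9 was lower on Tl only. The full list had a median change of -0.65 on Tl and -0.13 on Tm. Housekeeping genes had a median change of -0.02 on Tl and 0.72 on Tm. The part of these cells in the values of the members was not tested, and in sorted pools fewer cells of a type and less RNA per cell cannot be told apart.

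Probes of 1 gene gave opposite directions for 6 of the 12 members with several probes on Tl (Cmpk2, Ifih1, Ifnar1, Isg15, Isg20 and Zbp1) and for 3 on Tm (Ifih1, Isg15 and Zbp1). Among all genes with several probe values the share was 39.0% of 4153 on Tl and 35.1% of 4015 on Tm. The 6 members with several probes that moved alike on both arrays were Ddx58, Iigp1, Irf1, Irgm1, Oas1a and Xaf1.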

How the data were processed

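CD11b+Gr1-F4/80+ macrophages of 3 pooled littermates per stage were profiled on 1 Agilent array each. The authors quantified the images with Feature Extraction 10.7, and the scanner files they deposited hold linear intensities, corrected for background by that software and not normalized between arrays. The deposited table of log2 values holds 36409 probes with 29 of the member genes. Its normalization is not given in the sources used here. Its changes from Te matched those at the 75th percentile with Tm and Tl exchanged, with median offsets of 0.0008 and 0.0040 (log2). It was used only as an alternative, and as such it repeats the exchange on fewer probes. From the intensities, control and outlier spots were left out, the log2 signals of the spots of a probe were averaged, and the 75th percentile of each array was subtracted. A probe was above background where at least 0.5 of its spots were called well above background. Where this held on 1 of 2 arrays, the change is a lower bound against the lowest detected level on the dimmer array, or against the level of the dim probe where that is higher, and no fold is given where both were dim. No spot was saturated.

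Probes were named through the RefSeq transcript of the array design, a gene was its probe with the highest mean level, and other probes of a member are given where they differed in direction. The members and gene lists were chosen with earlier results of these data known. All members are accounted for by role, with the largest changes in full, and pathway genes are named where both later arrays were at least 2-fold from Te in 1 direction. No test was possible with a single array at each stage, which limits the precision, and the main counts are set beside the share of all genes. Alternatives were other scalings, normexp background correction on median intensities (offset 50, limma 3.58.1), other filters, outlier spots kept, the median over probes, the authors' table, exchanged Tm and Tl files, and thresholds of 1.5-fold and 4-fold. The steps, run in Python 3.11.15 with pandas 2.3.3, were tested on simulated data. A gene of the pathway lists is not reported here.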

Additional observations from a re-analysis of the deposited data

How the results depend on the processing

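No paired analysis was possible because each stage has 1 array. Keeping outlier spots, normexp, either filter on dim probes and the median over the probes of a gene left every count within 1.5 times and both medians within the spot error. On Tl, members at least 2-fold lower (6) numbered 10 with the percentile over detected probes, 2 with the median and 1 without normalization, and those higher (10) numbered 6, 21 and 29. The shares of all genes in the same order were 25.7%, 10.6% and 3.77% lower, and 16.7%, 38.7% and 60.2% higher. On Tm, members lower (14) numbered 9 with the median, and those higher (6) numbered 3 with the percentile over detected probes and 14 with the median. Beside these stood 7.85%, 19.4% and 46.1% of all genes. The median change on Tl (0.24) became 0.038, 0.76 and 1.41 under these scalings, in that order, and that on Tm (-0.22) became -0.55, 0.34 and 0.045, and -0.43 with quantile normalization. With the files exchanged, Tl had 14 lower and 6 higher with a median of -0.22, and Tm 6 and 10 with 0.24. All genes then had 16.9% lower and 29.2% higher on Tl, and 21.1% and 22.3% on Tm. With the authors' table, which holds 29 members, Tl had 14 and 6 with -0.87, and Tm 6 and 10 with 0.66. The genes of that table had 34.3% lower and 40.4% higher on Tl, and 35.9% and 32.1% on Tm. At 1.5-fold, 13 were lower and 19 higher on Tl and 11 higher on Tm, beside 29.9%, 35.3% and 40.7% of all genes. At 4-fold, 1 was lower and 1 higher on Tl, beside 4.87% and 5.09%, and 5 were lower and 1 higher on Tm, beside 3.45% and 7.46%. Of single genes, called changes on Tl turned sign without normalization for Ifnar2 (0.15) and Irgm1 (0.14). With the authors' table they turned for Irf7 (-0.075), Ifit1 (-2.09), Rtp4 (-0.26) and Gbp3 (-0.87), and with exchanged files for the same genes (-0.079, -1.90, -0.26 and -0.88). The authors' table and the exchanged files carry the same exchange, so these are not separate reversals. On Tm, Ifit1 turned under both (1.06), and Ifih1 with the median over its probes (-0.15). Except for the settings built to differ, the cause was not tested. Signal over background limits Ifit1, Ifit2 and Gbp5 on Tm.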
